A study of Mus musculus with 1152 samples.

Results

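Claudins and their partners build tight junctions, the seals between neighbouring cells, and 10 genes of this family were followed through brain cells: the claudins Cldn1, Cldn5, Cldn10 and Cldn11, the membrane proteins Ocln, Jam2, Jam3, F11r and Esam, and the scaffold gene Tjp1. They are 10 of the 46517 genes counted. They were taken by name under a rule that uses no measured value, but with earlier results of these data known. The cells came from adult C57BL/6 mice of both sexes and of a pair of reporter lines, Pdgfra-H2BGFP, with a nuclear green protein in cells that use Pdgfra, and Tagl-CREERT2;Ai14, with a red protein in cells where the Cre recombinase named for Tagl has acted. Brain tissue was digested, vascular fragments were captured on beads coated with an antibody against CD31, and fluorescent cells were sorted into wells for SMART-seq2, which reads full-length transcripts of single cells. Both reporters limit which cells were sampled, since a cell without fluorescence was not sorted. No label ties a well to an animal, a line or a plate, so all 1152 wells count as 1 sample without replicates, and no test, p-value or SD across samples can be given.

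In a tight junction, claudins span the membrane and set which solutes pass between cells, occludin (Ocln) and the junctional adhesion molecules join them, and ZO-1 (Tjp1) ties the complex to actin. Cldn5 is known as the claudin of brain endothelium, where it contributes to the blood-brain barrier. Cldn11 is known for the strands between the layers of myelin made by oligodendrocytes and for barrier layers of cells elsewhere, among them the arachnoid of the meninges.

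Wells with at least 50000 reads were kept, 857 of 1152, with 50002 to 1451280 reads and a median of 279874. They lie in 3 sets named in the well names, with 239 kept wells in 1025s_182s, 349 in 600s_182s and 269 in 613s, and a set is only what the names say. A well joined the class whose 6 marker genes had the highest mean log2(CPM + 1), where CPM is the count of a gene scaled to 1000000 reads in the well, if at least 3 of those markers reached 20 CPM. None of the 10 genes is a marker. This gave 234 oligodendrocyte precursor-like (OPC-like) wells, 90 like committed precursors (COP-like), 347 mature oligodendrocyte-like, 90 fibroblast-like and 47 endothelial-like wells. Each class is a range of a score, and 7, 6, 17, 5 and 3 wells of these classes, in that order, lay within 0.5 on the log2 scale of the next class.

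Several classes held RNA of other lineages, and their values are given beside the results they touch. At least 3 markers of another lineage at 20 CPM were found in 80 of 234 OPC-like, 22 of 90 COP-like, 169 of 347 mature oligodendrocyte-like, 71 of 90 fibroblast-like and 43 of 47 endothelial-like wells. At 200 CPM these numbers were 18, 3, 48, 15 and 27. Here and below, the OPC-like, COP-like and mature oligodendrocyte-like classes counted as the same lineage. RNA of another stage therefore did not make a well mixed. At least 3 mature oligodendrocyte markers at 20 CPM were found in 208 of 234 OPC-like and 87 of 90 COP-like wells. The endothelial-like wells carried 2044 CPM of summed mural markers, 1898 CPM of microglial and 849 CPM of fibroblast markers beside 6940 CPM of their own. The fibroblast-like wells carried 445 CPM of the endothelial markers, all 6 of which were above 10 CPM there. In the mature oligodendrocyte-like class, 119 of 347 wells had over 5% mitochondrial reads and a median of 82306 reads, against 376098 reads in the other 228 wells.

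Stretches of genome sequence frame the results, because the genes beside them mark opposite ends of the pattern: Cldn5 and Ocln were both highest in endothelial-like wells, and Cldn11 in mature oligodendrocyte-like wells. Each is the 250 bases before the gene's first annotated start in RefSeq on GRCm38.p6, written 5′ to 3′ on the gene's strand, and capitals mark the motifs found. The Cldn5 stretch is chr16:18776597-18776846 on the plus strand, that of Ocln chr13:100552719-100552968 on the minus strand, and that of Cldn11 chr3:31149670-31149919 on the plus strand.
Cldn5: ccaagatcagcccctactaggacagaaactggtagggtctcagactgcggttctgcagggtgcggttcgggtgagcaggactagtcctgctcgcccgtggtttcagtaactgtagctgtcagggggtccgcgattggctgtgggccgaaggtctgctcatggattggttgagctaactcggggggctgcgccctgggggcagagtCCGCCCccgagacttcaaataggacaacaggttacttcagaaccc
Ocln: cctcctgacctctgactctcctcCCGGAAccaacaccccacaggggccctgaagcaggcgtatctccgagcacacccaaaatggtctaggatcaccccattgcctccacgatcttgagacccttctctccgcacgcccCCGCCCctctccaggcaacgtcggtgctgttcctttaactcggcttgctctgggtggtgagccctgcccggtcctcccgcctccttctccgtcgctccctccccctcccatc
Cldn11: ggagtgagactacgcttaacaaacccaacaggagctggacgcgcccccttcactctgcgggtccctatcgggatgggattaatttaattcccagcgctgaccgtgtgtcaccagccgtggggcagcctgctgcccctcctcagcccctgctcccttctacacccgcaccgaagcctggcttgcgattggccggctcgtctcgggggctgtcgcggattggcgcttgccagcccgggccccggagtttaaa
Searched on both strands were CCGGAA (an ETS core), ACAAAG and ACAATG (SOX cores), GGGCGG (a GC box) and TATAAA. Of 32851 windows of this length before genes in the same table, 12.0%, 16.5%, 10.7%, 32.7% and 12.4% held these motifs in that order. The Cldn5 window held GGGCGG once, on the opposite strand 45 bases before the start. The Ocln window held CCGGAA 227 bases and GGGCGG 112 bases before the start, and no motif matches overlapped. None of these motifs occurred in the Cldn11 window. The windows had 59.6%, 64% and 63.6% G and C for Cldn5, Ocln and Cldn11, against a median of 52.4% over all windows. A match is a description of the letters and not a binding site, and 7 of the 10 genes were in the table.

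Cldn5 (chromosome 16, 18776847 to 18778262, plus strand, GRCm38) was the endothelial claudin of these wells. In the 47 endothelial-like wells it ranged from 11.6 to 6852 CPM with a median of 2936, and 46 of the 47 exceeded 1000 CPM. Medians elsewhere were 6.81 CPM in OPC-like, 4.64 in COP-like, 15.0 in mature oligodendrocyte-like and 12.1 in fibroblast-like wells, with highest wells of 653, 4323, 10333 and 3971 CPM. The bulk of the endothelial-like wells therefore lay above the bulk of every other class, while single wells elsewhere reached the same level. The summed counts gave 2637 CPM in endothelial-like wells (95% Poisson interval 2614 to 2661), 225 in fibroblast-like (219 to 230), 48.3 in mature oligodendrocyte-like, 25.6 in COP-like and 17.0 in OPC-like wells. In COP-like wells 69.7% of the Cldn5 reads came from 3 wells. Within sets the endothelial-like level was 3075 CPM in 1025s_182s and 2210 CPM in 613s, and the fibroblast-like level 178 to 285 CPM. The ranges over sets of mature oligodendrocyte-like (6.02 to 77.1), COP-like (26.2 to 27.7) and OPC-like wells (10.9 to 35.0) overlapped, so those lower 3 classes have no order.

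**Figure D1:**
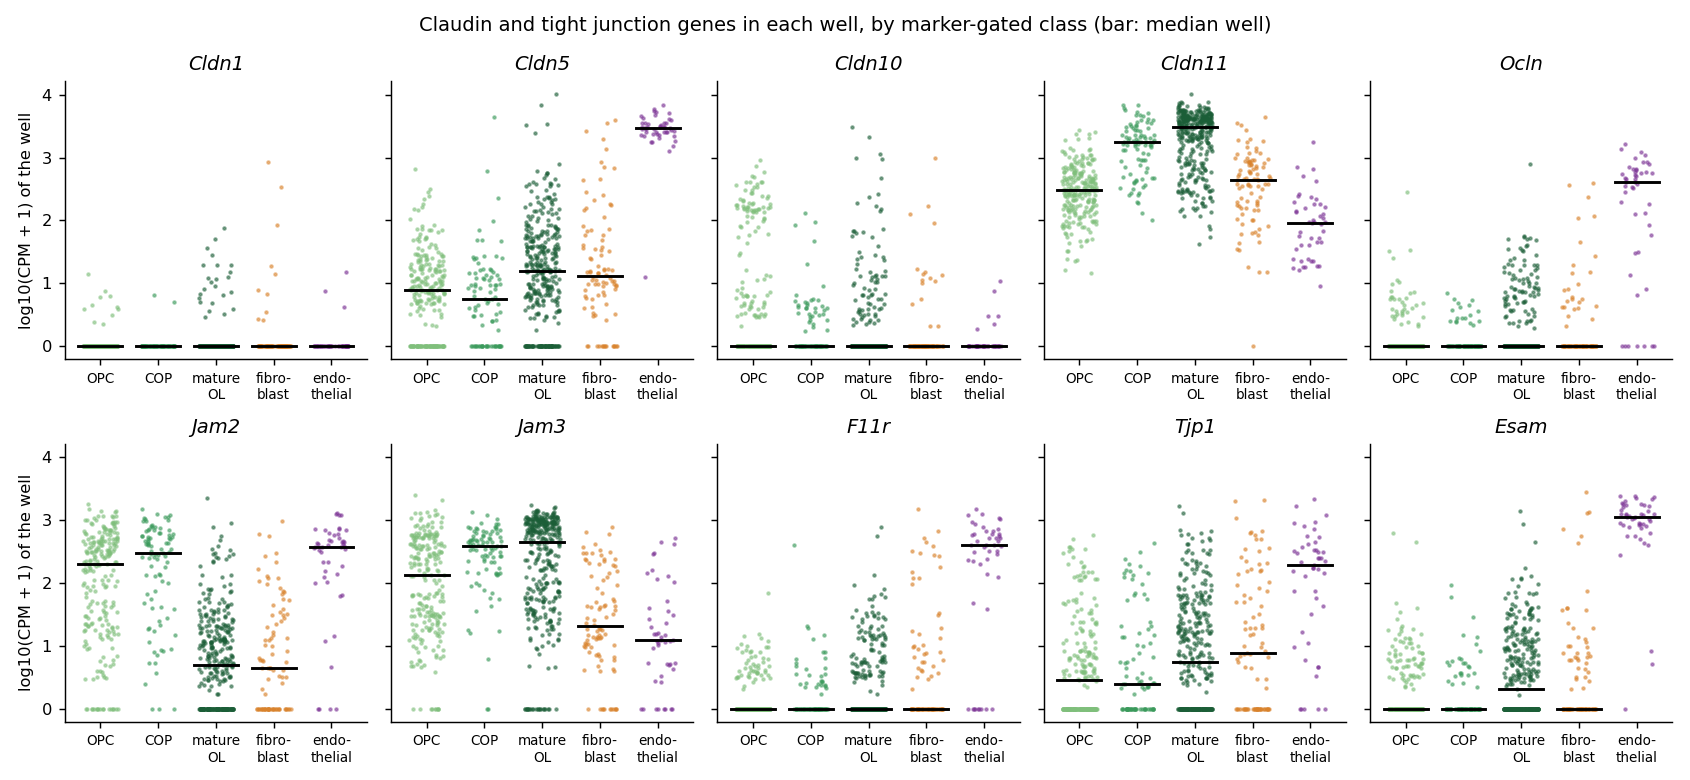
CPM of each gene in each well on a log10(CPM + 1) axis, by gated class, where OL is oligodendrocyte and the bar is the median well. Cldn5, Esam, Ocln and F11r have high medians only in the endothelial-like wells, and the median of Cldn11 goes from 303 CPM in OPC-like to 3008 CPM in mature oligodendrocyte-like wells.

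Other junction genes stood high in the same wells. Esam (chromosome 9, 37528078 to 37538319, plus strand), an adhesion molecule of endothelial cells and platelets, had a median of 1110 CPM in endothelial-like wells, from 0 to 2418, and medians of 0 to 1.06 in the other classes. Ocln (chromosome 13, 100496507 to 100552718, minus strand) had a median of 406 CPM there, from 0 to 1616, and F11r (chromosome 1, 171437535 to 171464603, plus strand), the gene of JAM-A, had 402 CPM, from 0 to 1531. The medians of Ocln and F11r were 0 in the other 4 classes. With every well thinned to 50000 reads, 78.7% of endothelial-like wells (95% Clopper-Pearson interval 64.3 to 89.3) had an Ocln read, against 6.84% of OPC-like wells (3.96 to 10.9). These intervals take each well as a separate draw, although all wells count as 1 sample. They describe these wells and do not cover spread between animals. Unthinned shares were 85.1% and 15.8%, at median depths of 372980 and 262342 reads. Of the 6 genes Cldn5, Esam, Ocln, F11r, Jam2 and Tjp1, all 6 reached 20 CPM in 24 of the 47 wells, 5 in 10 wells, 4 in 9, 3 in 3 and 1 in 1.

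Per kilobase of annotated exon, the levels in endothelial-like wells ran from Cldn5 at 1862 CPM over Esam at 405, F11r at 185, Ocln at 118 and Jam2 at 74.7 to Tjp1 at 36.7 CPM. Across these 47 wells the genes did not all go together. On log2(CPM + 1), Pearson's r was 0.57 for Jam2 with Esam and 0.48 for Ocln with F11r, but -0.17 for Cldn5 with Ocln and -0.05 for Cldn5 with Esam. These are descriptions over wells that share one sample and differ in depth.

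Against fibroblast-like wells, 6 of the 9 genes with at least 10 CPM in either class were higher in endothelial-like wells, 2 lower and 1 neither. Here and below, counts were summed over the wells of a class, and a gene was called if (CPM + 1) differed at least 2-fold between the classes and reached 10 CPM in one of them. By the same rule 20.9% of 11716 genes were higher and 23.1% lower. The median log2 ratio was 2.74 over the 9 genes and 0.02 over all genes. Esam was 15.2-fold higher, Ocln 14.7-fold, Cldn5 11.7-fold, Jam2 11.6-fold, F11r 6.70-fold and Tjp1 2.53-fold. Within 1025s_182s and 613s, the sets with enough wells of both classes, the log2 ratio was 4.00 and 3.78 for Esam, 4.11 and 2.95 for Cldn5, and 1.62 and 1.12 for Tjp1. Without the 613s wells, Ocln went from 3.88 to 4.98, and without those of 1025s_182s Jam2 went from 3.54 to 4.34. Without wells that carried another lineage at 200 CPM, which left 20 endothelial-like and 75 fibroblast-like wells, Tjp1 was no longer called, Cldn5 went from 3.55 to 5.14, and Esam from 3.92 to 8.35.

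Mature oligodendrocyte-like wells were compared with the same endothelial-like wells, so the values stand beside the previous ones and are not independent of them. All 9 genes with at least 10 CPM were called, 6 higher in endothelial-like wells and 3 lower, against 30.2% and 22.7% of 11777 genes. Their median log2 ratio was 3.69, against 0.20 over all genes. Ocln was 140-fold, Esam 128-fold, F11r 75.4-fold and Cldn5 53.6-fold higher in endothelial-like wells. Cldn11 was 24.9-fold, Cldn10 10.7-fold and Jam3 9.52-fold lower. Without wells that carried another lineage at 200 CPM, the log2 ratio of Jam3 went from -3.25 to -5.97 and that of Cldn11 from -4.64 to -5.52. Of all called genes, 57.1% were higher by CPM and 45.5% with TMM factors, a scaling that lowered the median ratio of all genes by 0.32 on the log2 scale; none of the 9 calls was lost under it. Without wells over 5% mitochondrial reads Cldn10 was at 6.39 CPM in mature oligodendrocyte-like and 0.40 CPM in endothelial-like wells, a log2 ratio of -2.40, and was not called because neither class reached 10 CPM. Without the 613s wells, the log2 ratio of Cldn5 went from 5.74 to 6.82, Ocln from 7.13 to 8.49, F11r from 6.24 to 7.00 and Esam from 7.00 to 8.94.

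**Figure D2:**
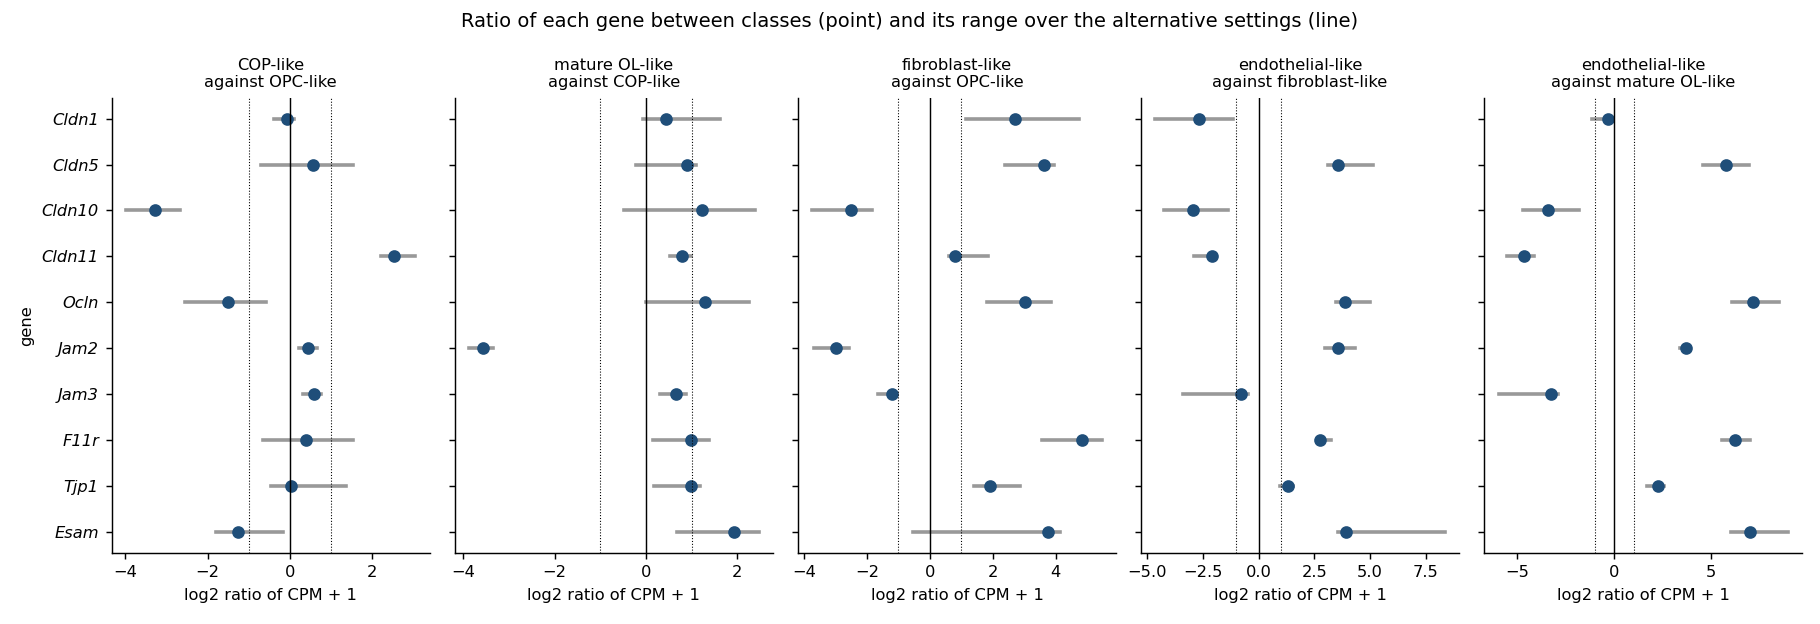
Log2 ratio of CPM + 1 for each gene (rows) in the 5 comparisons (panels, each with its own axis), as reported (point) and over the alternative settings (line); dotted lines mark a ratio of 2. Esam in fibroblast-like against OPC-like and Cldn10 in mature oligodendrocyte-like against COP-like wells are the called values whose line crosses 0.

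Cldn11 (chromosome 3, 31149920 to 31164324, plus strand) was higher at each later stage of the oligodendrocyte lineage. OPC-like wells ranged from 13.4 to 2769 CPM with a median of 303, COP-like wells from 102 to 6908 with a median of 1741, and mature oligodendrocyte-like wells from 40.6 to 10092 with a median of 3008. The ranges overlap, and the lower part of the mature class is wide. Summed counts gave 324 CPM (95% Poisson interval 319 to 328), 1882 (1869 to 1895) and 3240 CPM (3229 to 3251). COP-like wells were 5.80-fold above OPC-like wells, with log2 ratios of 2.25 in 600s_182s and 3.09 in 613s. The step from COP-like to mature oligodendrocyte-like wells was 1.72-fold, under the ratio of 2 of the call, with log2 ratios of 1.01 and 0.64 in those sets. Among OPC-like wells the sets differed, at 55.1 CPM in 1025s_182s, 388 in 600s_182s and 198 in 613s. Mog, a late myelin gene, was at 15.6, 100.1 and 82.7 CPM in the same wells. On log2(CPM + 1), Pearson's r of Cldn11 with Mog was 0.82 over the 234 OPC-like wells. Within these sets it was 0.18, 0.84 and 0.68. The part of mature oligodendrocyte RNA in the Cldn11 levels of the earlier stages was not tested.

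The mature oligodendrocyte-like wells with over 5% mitochondrial reads had other junction levels. Cldn11 was at 976 CPM there and at 3492 CPM in the remaining 228 wells, and Jam3 at 83.3 against 764 CPM. Cldn5 went the other way, with 296 against 20.7 CPM, and so did Esam, with 51.4 against 3.23 CPM, and Cldn10, with 86.5 against 6.39 CPM. Of these 119 wells 41 lay in 1025s_182s, 2 in 600s_182s and 76 in 613s. They also held 367 CPM of the astrocyte gene Gfap and 645 CPM of the neuronal gene Ddn, against 27.6 and 22.9 CPM in the remaining wells. The part of these RNAs, of depth and of mitochondrial content in the levels was not tested.

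Jam3 (chromosome 9, 27097384 to 27155421, minus strand), an adhesion molecule of tight junctions, was higher in the oligodendrocyte lineage than in fibroblast-like and endothelial-like wells. Its medians were 132 CPM in OPC-like, 392 in COP-like, 447 in mature oligodendrocyte-like, 19.6 in fibroblast-like and 11.4 in endothelial-like wells. Summed counts gave 296, 440, 695, 127 and 72.2 CPM. The mature class was 1.58-fold above the COP-like class and not called, and in 613s its median well was lower, at 230 against 424 CPM. An antisense gene, Gm48796, overlaps a Jam3 exon and the strand setting of the counting is not given in the sources used here, so reads of the pair cannot be told apart. In the mature class Jam3 varied with Cldn11 across the 347 wells, with Pearson's r of 0.76, while r was 0.14 over the 234 OPC-like wells. The mature wells share one sample and differ in depth and mitochondrial content.

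Jam2 (chromosome 16, 84774123 to 84825928, plus strand), the gene of another junctional adhesion molecule, was high early in the lineage and low late. Its medians were 204 CPM in OPC-like wells (0 to 1798), 305 in COP-like (0 to 1513) and 3.93 in mature oligodendrocyte-like wells (0 to 2280). The OPC-like median differed between sets, at 3.92 CPM in the 19 wells of 1025s_182s, 232 in 600s_182s and 106 in 613s. Summed OPC-like levels in these sets were 269, 326 and 256 CPM. The mature class was 11.9-fold below the COP-like class, with log2 ratios of -3.60 in 600s_182s and -3.43 in 613s. In endothelial-like wells the median was 377 CPM, and their range over sets (399 to 507 CPM) overlapped that of COP-like wells (412 to 480). Those neighbours in the order of Jam2 levels did not differ beyond their spread over sets.

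**Figure D3:**
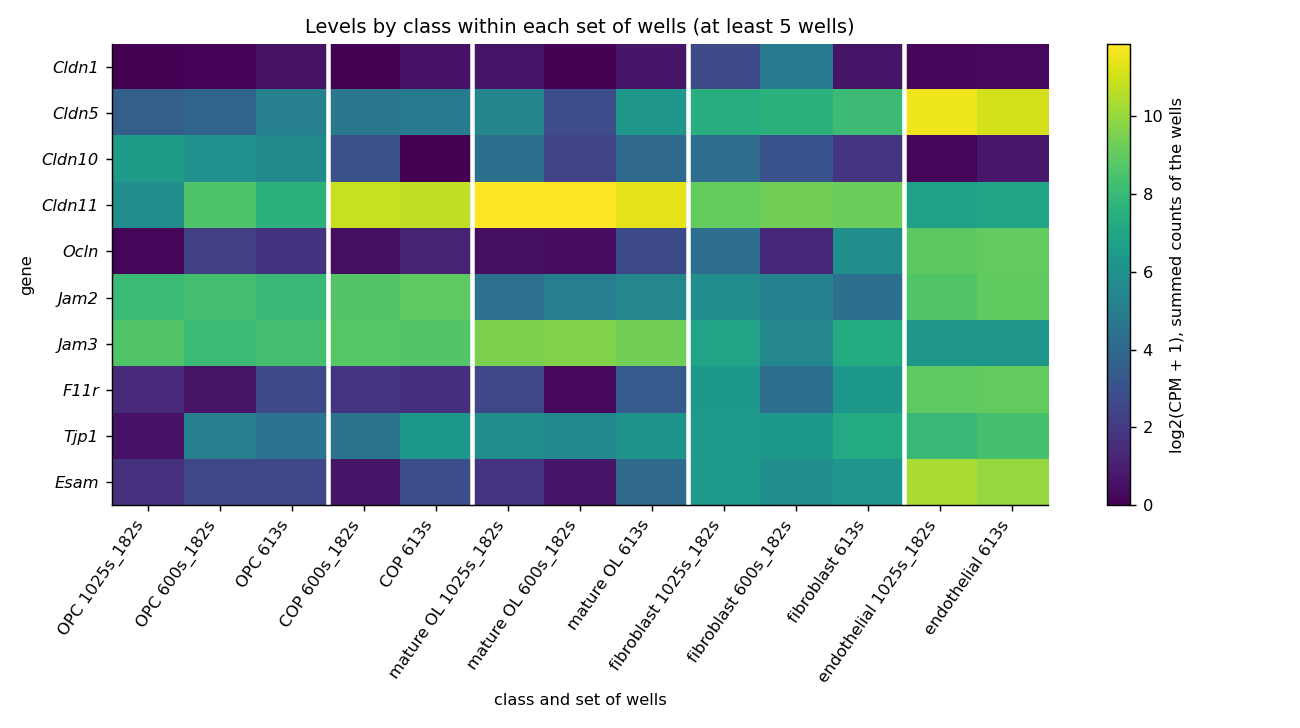
Log2(CPM + 1) of summed counts for each gene (rows) by class and set of wells (columns), for sets with at least 5 wells of the class. Jam2 is bright in OPC-like, COP-like and endothelial-like columns and darker in all mature oligodendrocyte-like columns, and Ocln in fibroblast-like wells goes from 1.49 CPM in 600s_182s to 59.5 CPM in 613s.

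Cldn10 (chromosome 14, 118787908 to 118875489, plus strand), a claudin with ion-selective forms in other tissues, was found in part of the OPC-like wells. Its median was 0 there, but 53 of 234 wells (22.6%) exceeded 100 CPM, up to 905 CPM. The summed level was 62.6 CPM, with 46.8 to 94.3 CPM over the 3 sets, against 5.56 CPM in COP-like wells. That is 9.70-fold lower in COP-like wells, with log2 ratios of -3.05 in 600s_182s and -5.58 in 613s. Aqp4, a water channel of astrocytes, was at 18.1 CPM in the OPC-like wells with a median of 0, and all 6 astrocyte markers summed to 1210 CPM there and to 276 CPM in COP-like wells. In the 154 OPC-like wells without another lineage at 20 CPM, Cldn10 was at 63.1 CPM. The part of astrocyte RNA in the Cldn10 level was not tested. The level in mature oligodendrocyte-like wells, 14.4 CPM, was 2.35-fold above COP-like wells in the pooled counts, with log2 ratios of -0.52 in 600s_182s and 4.10 in 613s. That call was lost without the 1025s_182s wells and without the 613s wells, at log2 ratios of 0.93 and 0.92, and the log2 ratio was 0.16 without wells over 5% mitochondrial reads.

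Along the lineage, 2 of the 6 genes with at least 10 CPM were called in each step, a share near that over all genes. From OPC-like to COP-like wells, Cldn11 was higher and Cldn10 lower, against 10.5% of 11515 genes higher and 22.8% lower. Jam3 (log2 ratio 0.57), Cldn5 (0.57), Jam2 (0.43) and Tjp1 (0.02) were neither. From COP-like to mature oligodendrocyte-like wells, Cldn10 was higher and Jam2 lower, against 13.7% of 10688 genes higher and 19.6% lower. The Cldn10 call was lost in several settings, and its log2 ratio was -0.52 in 600s_182s and 4.10 in 613s. Of all called genes, 31.5% were higher by CPM in the first step and 41.6% with median-of-ratios factors, and in the second step 41.2% were higher by CPM and 53.6% with TMM factors. Those scalings raised the median ratio of all genes by 0.18 and 0.20 on the log2 scale. Cldn5 and Tjp1, at 0.89 and 0.98 in the second step, were not called by CPM and were called under both TMM and median-of-ratios factors.

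Cldn11 was also high in fibroblast-like wells. It had a median of 446 CPM in them, from 0 to 4447, and 561 CPM in summed counts (95% Poisson interval 552 to 570). In the 3 sets it was 526, 635 and 579 CPM in 1025s_182s, 600s_182s and 613s. Mog, which is also a marker of the mature oligodendrocyte gate, differed more between these sets, at 15.0, 172 and 63.3 CPM. For 1 Mog read there were 3.61 Cldn11 reads in OPC-like, 3.87 in COP-like, 1.55 in mature oligodendrocyte-like, 3.83 in endothelial-like and 10.3 in fibroblast-like wells. In fibroblast-like wells this ratio was 35.1 in 1025s_182s, 3.69 in 600s_182s and 9.15 in 613s.

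Across wells, Cldn11 and Mog went together in some sets of fibroblast-like wells and not in others. On log2(CPM + 1), Pearson's r was 0.90 over the 23 wells of 600s_182s, 0.29 over the 42 wells of 1025s_182s and 0.12 over the 25 wells of 613s. In mature oligodendrocyte-like wells r was 0.91 over 347 wells, with 0.78 to 0.91 within sets. These wells share one sample and differ in depth. Mbp, another myelin gene, was at 441 CPM in fibroblast-like wells. The summed markers of the mature oligodendrocyte class were at 477 CPM there. Without wells that carried another lineage at 200 CPM, Cldn11 was at 540 CPM in 75 fibroblast-like wells. With that limit at 20 CPM, it was at 542 CPM in 19 wells. The part of myelin RNA in the Cldn11 level was not tested.

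**Figure D4:**
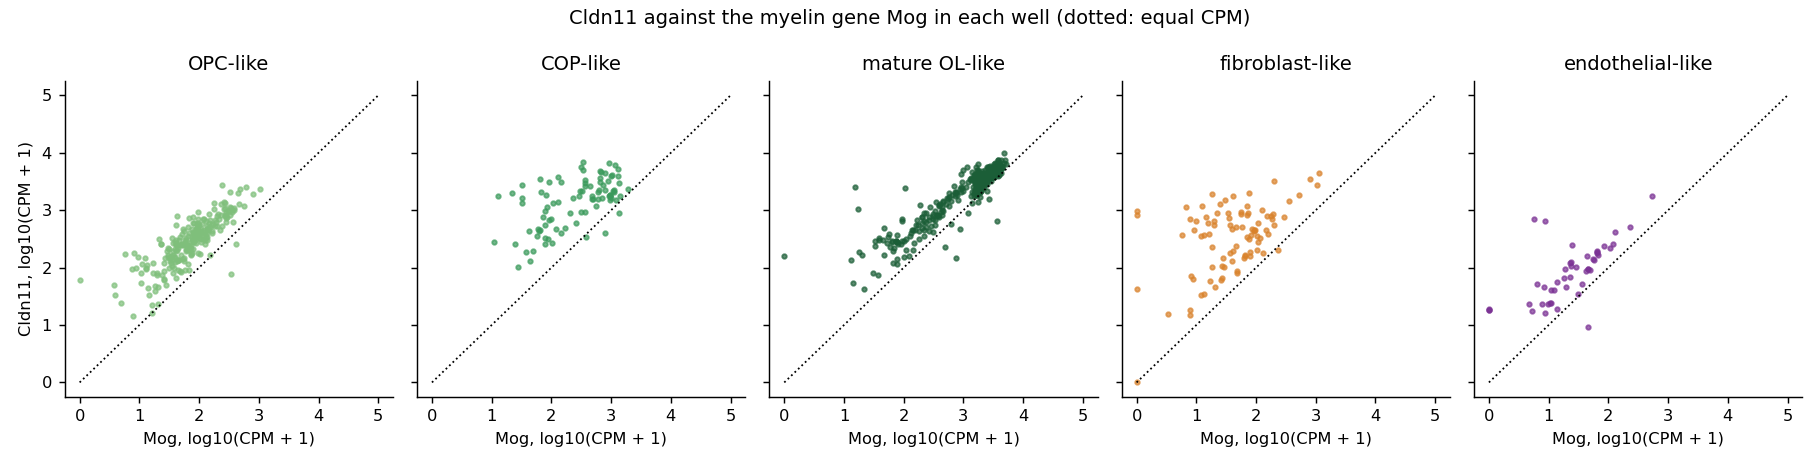
Cldn11 against the myelin gene Mog in each well, both as log10(CPM + 1), by class, where OL is oligodendrocyte and the dotted line marks equal CPM. The mature oligodendrocyte-like wells lie along a band (r of 0.91), and the fibroblast-like wells are more scattered (r of 0.50).

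The remaining junction genes in fibroblast-like wells went with endothelial markers to different degrees. In the 48 wells with none of the 6 endothelial markers at 20 CPM, Cldn11 was at 545 CPM, Jam3 at 108, Tjp1 at 73.8, Cldn5 at 51.3, F11r at 13.4, Esam at 0.95 and Ocln at 0.88 CPM. In the 11 wells with at least 3 of them, Cldn5 was at 1316, Esam at 674, Tjp1 at 395, F11r at 203 and Ocln at 100.1 CPM, with Cldn11 at 680 CPM. In the 31 wells with 1 or 2 of them, Cldn5 was at 141, F11r at 111, Tjp1 at 84.4, Ocln at 55.0 and Esam at 4.09 CPM. Cldn11 was at 549 CPM in these 31 wells. Esam, Ocln, Cldn5 and F11r were far higher in the 11 wells than in the 48, and Tjp1 was higher too. Cldn11 had a similar level in both. Medians in the 11 wells were 427 CPM for Esam, 278 for Cldn5, 179 for F11r, 168 for Tjp1 and 13.5 for Ocln, with 381 for Cldn11. In the 48 wells the medians were 409 CPM for Cldn11, 8.81 for Cldn5, 3.36 for Tjp1 and 0 for F11r, Esam and Ocln. The summed Cldn5, Tjp1 and F11r levels of those 48 wells thus lay well above their median wells. Few wells gave much of the summed counts: 3 wells held 86.8% of the Ocln reads and 58.6% of the Esam reads of the class.

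**Figure D5:**
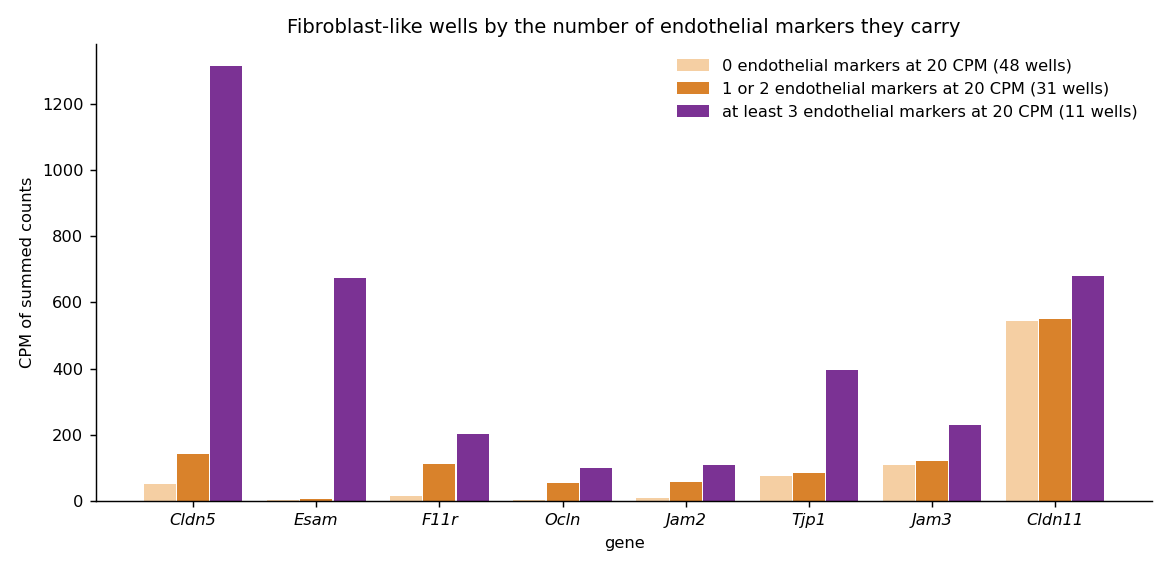
CPM of summed counts of 8 genes in fibroblast-like wells, as bars from 0, by how many of the 6 endothelial markers reach 20 CPM in the well. Esam goes from 0.95 CPM with none to 674 CPM with at least 3, and Cldn11 from 545 to 680 CPM.

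Fibroblast-like and OPC-like wells, both of cell types known to use Pdgfra, differed in 8 of 9 genes. Cldn5, Ocln, F11r, Tjp1 and Esam were higher in fibroblast-like wells and Cldn10, Jam2 and Jam3 lower, against 20.9% of 12594 genes higher and 27.9% lower. The log2 ratio was 3.65 for Cldn5, 3.02 for Ocln, 4.85 for F11r, 1.91 for Tjp1 and 3.76 for Esam. It was -2.49 for Cldn10, -2.99 for Jam2 and -1.22 for Jam3. Cldn11 was 1.73-fold higher and not called, but its log2 ratios within sets were 3.23, 0.71 and 1.54 in 1025s_182s, 600s_182s and 613s, and it was called without the 600s_182s wells. Ocln was at -0.94 in 600s_182s and above 4 in the other sets (4.02 and 4.18), and without the 613s wells it was 1.81. Without the 600s_182s wells Cldn5 went to 3.01, F11r to 3.98, Ocln to 3.86 and Tjp1 to 2.87, and without those of 1025s_182s Cldn10 went to -3.74 and Jam2 to -3.67. Without wells that carried another lineage at 200 CPM, Esam was 2.97 CPM in fibroblast-like and 4.75 CPM in OPC-like wells and its call was lost, Cldn5 was 95.6 against 17.2 CPM, F11r 63.1 against 1.51 and Ocln 25.6 against 3.36 CPM.

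Endothelial-like wells were lower than fibroblast-like wells in Cldn11 and Cldn10. Cldn11 was at 129 CPM (median 88.7) in endothelial-like wells and 4.31-fold below the fibroblast-like level, with a log2 ratio near -2.24 in both sets, and 71.5 CPM in the 20 wells without another lineage at 200 CPM. Across the 47 wells Pearson's r of Cldn11 with Mog was 0.67, with 0.26 over the 25 wells of 1025s_182s and 0.96 over the 18 of 613s. Jam3 was not called between these classes (72.2 against 127 CPM) but was 10.4 CPM in those 20 wells. Cldn10 was at 0.45 CPM in endothelial-like wells against 10.3 in fibroblast-like wells, where 3 wells held 89.0% of its reads, and the call was lost without the 1025s_182s wells, at a log2 ratio of -1.40. With TMM factors the fibroblast-like level was 9.77 CPM, under the 10 CPM that a call needs, and the log2 ratio was -2.92 against -2.97 as reported.

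Tjp1 (chromosome 7, 65296165 to 65527781, minus strand), the ZO-1 scaffold, was highest in endothelial-like wells and stood less apart there than Cldn5, Ocln, F11r and Esam. Its median was 196 CPM there and 1.88, 1.54, 4.67 and 6.71 CPM in OPC-like, COP-like, mature oligodendrocyte-like and fibroblast-like wells, with summed levels of 287, 29.4, 29.9, 59.7 and 113 CPM in the same order. Without wells that carried another lineage at 200 CPM, Tjp1 was at 196 CPM in 20 endothelial-like and 101 CPM in 75 fibroblast-like wells. With that limit at 20 CPM only 4 endothelial-like wells were left, and Tjp1 was not highest in them. It was at 18.0 CPM there and 75.7 CPM in 19 fibroblast-like wells. The set ranges of COP-like (23.0 to 78.9) and OPC-like wells (0.47 to 34.8) overlapped, and the former also overlapped that of mature oligodendrocyte-like wells (46.2 to 70.5). Cldn1 (chromosome 16, 26356642 to 26371841, minus strand), a claudin of epithelia, was low in all 5 classes. Its median was 0 in each, and the highest class, fibroblast-like at 6.54 CPM, had 93.9% of its reads from 3 of 90 wells.

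Of 49 other tight junction genes in the table, a list made by name, most were under 10 CPM. In endothelial-like against fibroblast-like wells, 22 reached it, of which 4 were higher and 4 lower, against 20.9% and 23.1% of all genes, and the median log2 ratio was 0.09. Lsr, a protein of junctions where 3 cells meet, was at 584 CPM in endothelial-like, 24.3 in fibroblast-like and 4.11 in mature oligodendrocyte-like wells. Marveld2, the tricellulin gene of the same junctions, was at 23.7 CPM in endothelial-like wells and had 0 reads in fibroblast-like wells, which allows up to 0.110 CPM. Igsf5, a junctional adhesion molecule, was at 37.4 CPM in endothelial-like and 0.95 in fibroblast-like wells. Cldn15 was at 33.5 CPM in fibroblast-like wells with 0 reads in endothelial-like wells, which allows up to 0.168 CPM. Pard6g, a polarity gene, was at 131 and 17.5 CPM and Magi2, a scaffold, at 13.9 and 1.34 CPM in fibroblast-like and endothelial-like wells.

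Against mature oligodendrocyte-like wells, 8 of 23 listed genes were higher in endothelial-like wells and 6 lower, against 30.2% and 22.7% of all genes, and their median log2 ratio was 0.12. Cgnl1, the paracingulin gene, was at 247 CPM against 8.24 CPM, and Prkcz, an atypical protein kinase C, at 4.97 against 647 CPM. In fibroblast-like against OPC-like wells 8 of 22 were higher and 7 lower, against 20.9% and 27.9% of all genes, with Cgnl1 at 233 against 3.08 CPM and Prkcz at 10.1 against 151 CPM. From OPC-like to COP-like wells 2 of 18 were higher and 6 lower, against 10.5% and 22.8% of all genes. Cldn14, a further claudin, was at 1.71, 25.1 and 71.5 CPM in OPC-like, COP-like and mature oligodendrocyte-like wells, and Pard6g at 8.04, 43.5 and 2.46 CPM. From COP-like to mature wells 8 of 17 were higher and 2 lower, against 13.7% and 19.6% of all genes, and Cldn12 was at 63.0 and then 18.6 CPM. Cldn14 thus stood in the same order of stages as Cldn11, at a far lower level.

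The genes of most like pattern were found by Pearson's r of log2(CPM + 1) over 13 profiles, the classes within sets, among 15183 genes. For Cldn5 these were Sox18 (0.99), Pecam1 and Flt1, the latter pair being markers of the endothelial gate. For Esam they were Slco1a4 (0.996), also a marker, Cd34 and Adgrl4, for Ocln Ccdc141 (0.99), Layn and Gch1, and for F11r Adgrl4 (0.98), Flt1 and Cldn5. Cldn11 was most like Gas7 (0.97), Kndc1 and Adamts4, and Jam3 most like Hmgcs1 (0.97), Msmo1 and Acot7. For Jam2 they were Agrn (0.92), Cav1 and Pcgf5, for Tjp1 Srgap2 (0.95), Fau and Csgalnact2, and for Cldn10 6330403K07Rik (0.94), Kcnip3 and Chl1. The profiles share wells of one sample, and r describes these profiles only.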

How the data were processed

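The deposited table holds raw counts, whole numbers of reads per gene and well, which the authors did not normalize. Per the submitters' processing notes, reads passed through TopHat2 2.1.1, SAMtools 0.1.18 and, from Subread 1.4.6-p5, featureCounts, and the builds named are GRCm38 and mm10. Not given in the sources used here are the annotation, the strand setting and the handling of reads that match several genes. SMART-seq2 reads carry no molecular identifiers, and the Poisson intervals and limits for 0 (3 reads) cover counting error only.

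Counts were scaled to CPM in wells of at least 50000 reads, and wells were gated and summed by class as described above (Python 3.11.15, pandas 2.3.3, numpy 2.4.6, scipy 1.17.1). Intervals are exact Poisson or Clopper-Pearson intervals at 95%. The Clopper-Pearson intervals take wells as separate draws and give no spread between animals. TMM factors came from edgeR 4.0.16 in R 4.3.3 and served only as an alternative scaling. Coordinates and exon lengths are from GENCODE vM21 on GRCm38, in which 42052 symbols matched. The call rule was tested on simulated counts that held counting error only. They had no spread between wells or sets, so the test does not cover that spread. All 10 genes are described, with up to 3 called genes per direction and comparison of the other tight junction genes, and the 3 genes most like each of the 10 that reached 50 CPM in a class. The 10 genes, the lists and the markers were chosen with earlier results of these data known. Alternatives covered scaling, CPM added, filters, gates, wells with other lineages, and leaving out sets. Cells were sorted singly into wells, no doublet caller was run, and mixed wells were kept. Whether a mixed well held more than 1 cell was not tested.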

Additional observations from a re-analysis of the deposited data

Results flagged for a closer look

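A pair of genes had levels in wells outside the compared classes that lay above their levels in every compared class. Classes of under 20 wells were to be counted only, and these values were added after the data were seen. Cldn1 was at 223 CPM in the 15 choroid plexus-like wells (95% Poisson interval 211 to 236), with reads in 14 of 15 wells and a median of 187 CPM, against 6.54 CPM in fibroblast-like wells, the highest compared class. Cldn10 was at 313 CPM in the 9 astrocyte-like wells (286 to 342), with reads in 7 of 9 wells and a median of 282 CPM, against 62.6 CPM in OPC-like wells. All 9 astrocyte-like and all 15 choroid plexus-like wells carried another lineage at 20 CPM. Median mitochondrial reads of the astrocyte-like wells were 7.25%. The part of other lineages in both levels was not tested.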

How the results depend on the processing

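Of 75 pairs of a comparison and an alternative setting, 61 kept the call and direction of every called gene among the 10. Over all pairs, 421 of 435 called values were kept, 14 lost, 0 turned past the limit the other way and 27 were gained. The settings with no minimum level and with 0.1 CPM added could only add calls. Their pairs count among those kept and say nothing about how firm a call is. From OPC-like to COP-like wells, 2 genes were called, and 4 with no minimum level. From COP-like to mature oligodendrocyte-like wells, 2 were called, against 4 with TMM factors, 4 with median-of-ratios factors, 4 with no minimum level, 1 with 5 CPM added and 1 without wells over 5% mitochondrial reads, a setting chosen after seeing the data. The log2 ratio of Cldn10 in that comparison was -0.48 without wells that carried another lineage at 20 CPM, and that of Esam in fibroblast-like against OPC-like wells was -0.53 without those at 200 CPM; the cause was not tested. Other scalings moved the median log2 ratio of all genes by 0.12 (TMM, COP-like against OPC-like), 0.13, 0.14 and -0.18 (median-of-ratios, mature oligodendrocyte-like against COP-like, fibroblast-like against OPC-like and endothelial-like against mature oligodendrocyte-like). Shares of wells with a read moved beyond their interval in 35 of 50 cases when wells were not thinned. In 5 pairs a class was left with under 20 wells and the setting was not run. No paired analysis was possible because all wells count as 1 sample. Some levels under 10 CPM rest on few wells, such as that of Cldn1 in COP-like wells, with reads in 2 of 90. Others rest on more, such as that of Esam in mature oligodendrocyte-like wells, with reads in 175 of 347. Levels under 10 CPM are not ordered among themselves here.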

Other observations

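Other junction genes in the 15 choroid plexus-like wells were F11r, at 379 CPM with a median of 385 CPM, and Ocln, at 329 CPM with a median of 219 CPM. Cldn5 was at 578 CPM there with a median of 25.2 CPM, and Esam at 216 CPM with a median of 6.46 CPM, so a few wells carried most of those reads. In the 19 microglial-like wells Cldn5 was at 1256 CPM, F11r at 473 CPM and Esam at 644 CPM, with medians of 413, 371 and 30.9 CPM. Another lineage was found at 20 CPM in 18 of these 19 wells and in all 15 choroid plexus-like wells, and its part in the levels was not tested.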
